A study of Homo sapiens with 8 samples.

Results

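The zinc finger genes with a ZNF-number symbol that HCT116 cells expressed were examined across the 8 arrays of the study. HCT116 is a human colorectal cancer cell line, established from a tumour and grown in culture. A probe was taken as expressed when its symbol was ZNF followed by digits only and its deposited log2 value reached 5 on every array, which held for 61 of 523 ZNF-number probes and for 59 of 447 such genes. The members were thus selected on their deposited level on all 8 arrays, and that level is given only as a description. The comparisons between groups use the same arrays and are not independent of this selection. A probe under 5 on any array was left out, even where it changed between groups. Counts of called members at a level of 4 or 6 are given below where they differed.

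All arrays measured mRNA of HCT116 cells, with no genetic change stated. In 3 samples the cells had received a synthetic mimic of miR-8073, in 3 a microRNA-negative control sequence (the negative control), and in 2 the mock treatment, a transfection with no sequence. The labels gave no time after transfection, and the study states 2 different times. Whether a group's replicates came from different cultures is not stated, so a p-value here covers the spread among these arrays alone, and this may be technical. One cell line and 1 mimic were used, and RNA of the whole culture was hybridised, so fewer cells that express a gene and less of its RNA per cell cannot be told apart. Per array 47.3% to 52.3% of probes were above background. Of 8 measured epithelial marker genes, 7 were above background on every array, whereas 6 of 10 measured markers of leukocyte, fibroblast, endothelial and neuronal cells were above it on none and 2 (DCN and PDGFRB) on all 8.

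ZNF symbols are given to proteins that hold a zinc finger, most often the C2H2 type, in which a short loop folded around a zinc ion reads a few bases of DNA and several loops in a row read a longer site. Many of the human members carry a KRAB domain, which binds TRIM28 (KAP1) and through it the histone methyltransferase SETDB1, so that the bound DNA, very often a retroelement, is packed into silent chromatin. Others lack that domain and act on promoters, on the spindle or on the ribosome, and large clusters of the KRAB genes lie on chromosome 19. MicroRNAs lower the level or translation of mRNAs whose 3′ untranslated region pairs with the seed, the bases near the 5′ end. The mature miR-8073 of RefSeq, to which the mimic corresponds by name, lies on the plus strand of chr13:110340968-110340989 (GRCh38.p14). It is shown because it is the agent of every comparison with the mimic, and its seed (bases 2 to 8) is in capitals.
hsa-miR-8073: aCCUGGCAgcagggagcgucgu
Sites for this seed in the members' mRNAs were not examined here.

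The members were 11.7% of the ZNF-number probes, whereas 25.2% of all probes on the array (6165 of 24460) reached the same level on all 8 arrays. A further 46 ZNF-number probes reached it on some arrays. The other 416 reached it on none, and 243 of them lay at the table's floor of 2.07 on all 8 arrays. All 61 members, all 46 partly expressed probes and 149 of the 416 dim ones were bright enough to be tested. Just inside the threshold lay ZNF766, whose deposited log2 values ran from 5.04 to 5.74, ZNF57 (5.04 to 5.83) and ZNF580 (5.09 to 5.81). Just outside it lay ZNF791 (4.97 to 6.10), ZNF34 (4.95 to 5.66) and ZNF574 (4.90 to 5.58). The ranges of probes on either side of the threshold overlapped. The array's symbols are old for 4 members: ZNF259 is now ZPR1, ZNF403 is GGNBP2, and ZNF271 and ZNF702 are the pseudogenes ZNF271P and ZNF702P.

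After background correction and quantile normalization, the mean signal of a member over 8 arrays ran from 40.4 to 978 scanner units, with a median of 76.4, and was below 100 for 37 of the 61. Across the members, log2 signals had a correlation of 0.971 to 0.986 for the 7 array pairs within a group and 0.956 to 0.981 for the 21 pairs between groups, with all probes of an array sharing its RNA. The median SD of a member within a group was 0.0949 on the log2 scale in the negative control, 0.0966 with the mimic and 0.109 in mock. The widest spreads belonged to ZNF117 in the negative control (0.391), ZNF428 in mock (0.358) and ZNF706 with the mimic (0.255).

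**Figure D1:**
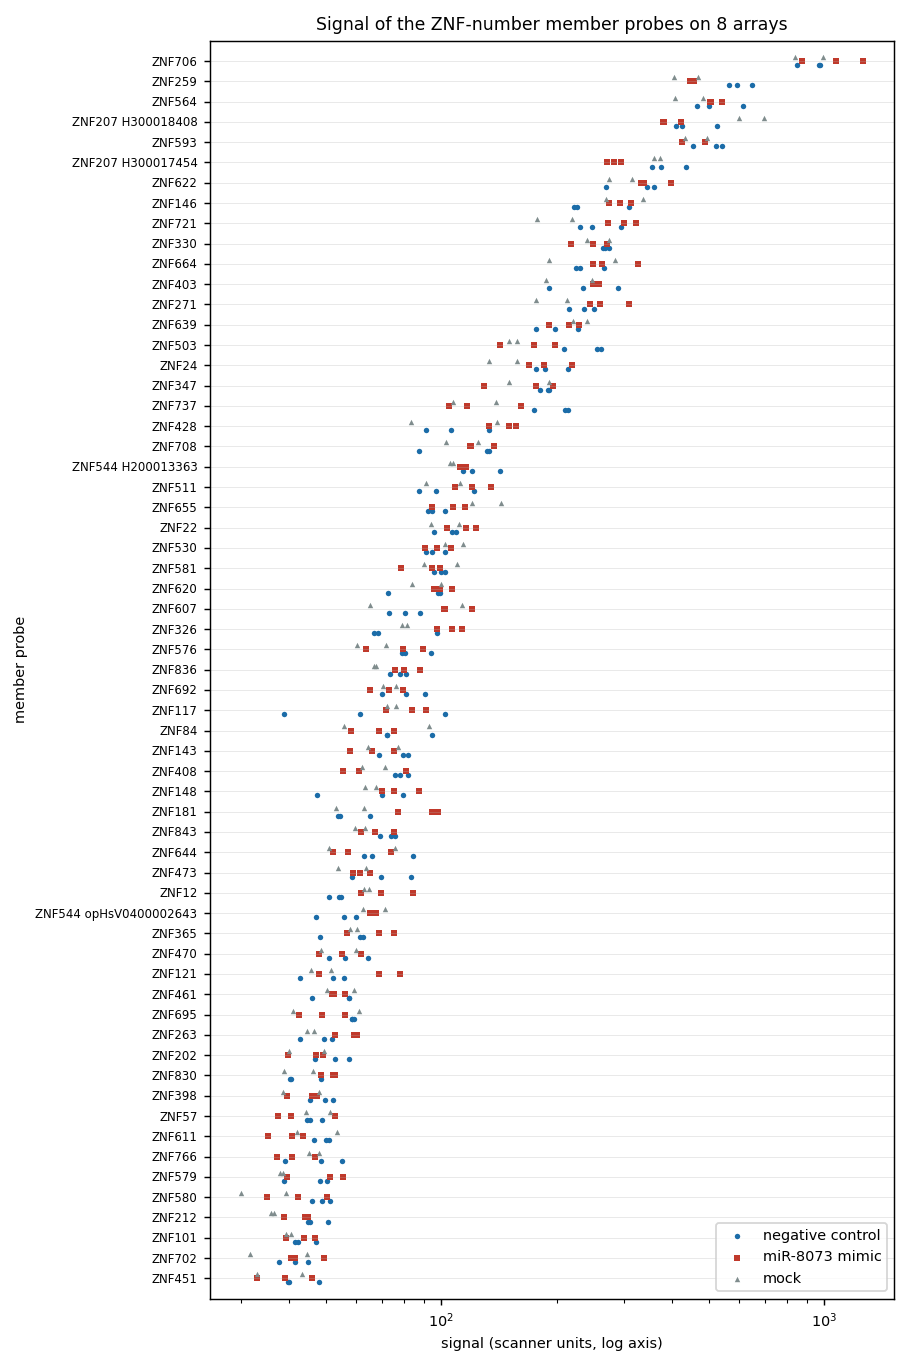
Signal of each member probe on each array, in scanner units on a log axis; circles are the 3 negative control arrays, squares the 3 mimic arrays and triangles the 2 mock arrays. Probes are sorted by their mean, which depends on the probe as well as on its mRNA, and for most members the marks of the groups lie among each other.

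The 5 brightest member probes were ZNF706, ZNF259, ZNF564, 1 of the 2 probes of ZNF207, and ZNF593. ZNF706 gave 846.9, 965.1 and 976.4 with the negative control, 1263, 872.0 and 1071 with the mimic, and 992.4 and 837.0 in mock. The groups overlapped, and the change against the negative control was 0.18 ± 0.13 (SE, adjusted p = 0.403). ZNF564 gave 463.9, 500.4 and 612.4, then 502.1, 506.8 and 541.8, then 407.4 and 483.0 in the same order. Its mimic arrays all lay above its mock arrays, with a change of 0.20 ± 0.11 that did not pass the test (adjusted p = 0.414).

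With the mimic in place of the negative control, 4 member probes fell and 1 rose, by limma at an adjusted p below 0.05. The 4 that fell were ZNF737, a KRAB zinc finger gene, 1 probe of ZNF207, whose product (BuGZ) binds the spindle and the checkpoint protein BUB3, ZNF503, a repressor without a KRAB domain, and ZNF259 (ZPR1), a zinc finger protein that binds the elongation factor eEF1A. ZNF181, another KRAB zinc finger gene, rose. The 5 called probes were 8.20% of the members, whereas 15.6% of all 12904 tested probes were called (7.81% lower and 7.82% higher), and 21.4% of the 6165 probes that reached the same level. The members' share was thus under the background of this comparison, and the count is no result about the family. The groups did not overlap, with the mimic lower, for 7 members (11.5%, against 18.2% of all tested probes) and, with the mimic higher, for 6 (9.84%, against 19.6%). The median change of the members was -0.0055 and that of all tested probes 0.0042. Without negative control replicate 1 or 2 the number of members that fell was 2. The number that rose was 0 without negative control replicate 1 or 3 or mimic replicate 2, and 2 without any 1 of the other 5 arrays.

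ZNF207, on chromosome 17, gave with its probe H300017454 signals of 355.1, 435.0 and 375.1 with the negative control, 294.0, 282.5 and 270.9 with the mimic, and 359.2 and 373.3 in mock. Each mimic array was lower than each of the 5 control arrays. Mean signal was 388 ± 41.6 with the negative control and 282 ± 11.6 with the mimic (SD, n = 3 each), a ratio of 0.727. The log2 change from the negative control was -0.40 ± 0.07 (SE, adjusted p = 0.010), and that from mock was -0.32 ± 0.08 (adjusted p = 0.0655). This probe was thus called against 1 of the controls only, and no difference between the 2 comparisons was tested. The call against the negative control did not depend on any 1 array. It ended under median centring (-0.28, adjusted p = 0.198), on the deposited log2 values (-0.41, adjusted p = 0.181) and with the methods' t-test (adjusted p = 0.0775). With the background read from the ring of pixels around a spot the change was -0.66 and not called.

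ZNF259 (ZPR1), on chromosome 11, gave 646.1, 591.4 and 564.7 with the negative control, 455.4, 444.6 and 453.9 with the mimic, and 404.2 and 466.8 in mock. The negative control arrays were high, and the mimic and mock arrays overlapped. Mean signals were 601 ± 41.5, 451 ± 5.83 and 435 ± 44.3 (SD, n = 3, 3 and 2). The change with the mimic was -0.37 ± 0.06 (SE, adjusted p = 0.0091) against the negative control and 0.05 ± 0.07 (adjusted p = 0.794, 95% interval -0.12 to 0.21) against mock. When the background was instead read from the ring of pixels around a spot, the change from the negative control turned to 0.095 and was no longer called. Under median centring it was -0.27 (adjusted p = 0.112), and on the deposited log2 values -0.38 (adjusted p = 0.185).

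ZNF737, on chromosome 19, gave 214.7, 210.3 and 174.9 with the negative control, 117.0, 161.2 and 105.1 with the mimic, and 107.6 and 139.3 in mock. The negative control arrays again lay above all the others, and mimic and mock overlapped. The ratio of the mean signals was 0.639 for mimic over negative control (n = 3 each), with a log2 change of -0.50 ± 0.13 (SE, adjusted p = 0.0410). Against mock it was 0.03 ± 0.15 (adjusted p = 0.954). The call against the negative control was lost without negative control replicate 1, 2 or 3 (adjusted p = 0.122, 0.105 and 0.0554) and without mimic replicate 1 or 3 (adjusted p = 0.112 and 0.104).

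ZNF503, on chromosome 10, gave 254.9, 260.6 and 208.7 with the negative control, 198.8, 142.4 and 175.2 with the mimic, and 150.8 and 157.7 in mock. Here too the negative control arrays were the high ones. The log2 change with the mimic was -0.39 ± 0.11 (SE, adjusted p = 0.0448) against the negative control and 0.11 ± 0.12 (adjusted p = 0.695) against mock. A second probe of the gene, H300021010, was no member, with deposited log2 values of 3.27 to 3.94. It gave 14.0, 14.2 and 13.8 with the negative control, 7.78, 9.26 and 12.4 with the mimic, and 8.31 and 10.6 in mock. It was again highest on the negative control arrays, with a change of -0.10 ± 0.04 that did not pass (adjusted p = 0.141). The call of the member probe was lost without negative control replicate 1 or 2 (adjusted p = 0.134 and 0.119), without mimic replicate 2 or 3 (0.0925 and 0.0913), and without mock replicate 1 or 2 (0.0556 and 0.0572).

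ZNF181, on chromosome 19, gave 54.6, 65.1 and 53.8 with the negative control, 98.1, 94.6 and 77.4 with the mimic, and 53.3 and 62.9 in mock. Each mimic array was higher than each of the 5 control arrays. Mean signal rose from 57.8 ± 6.32 to 90.0 ± 11.1 (SD, n = 3 each), a ratio of 1.56 and a log2 change of 0.38 ± 0.07 (SE, adjusted p = 0.0152). Against mock the ratio was 1.55 and the log2 change 0.37 ± 0.08, which did not pass the test (adjusted p = 0.0555). The call against the negative control was lost without negative control replicate 1 or 3 (adjusted p = 0.0571 and 0.0549) or mimic replicate 2 (0.0505), and with the ring background the change was -0.045 and not called. The call was also lost on the deposited log2 values (0.69, adjusted p = 0.0564), without the filter on dim probes (adjusted p = 0.0516) and with the methods' t-test (adjusted p = 0.0845).

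**Figure D2:**
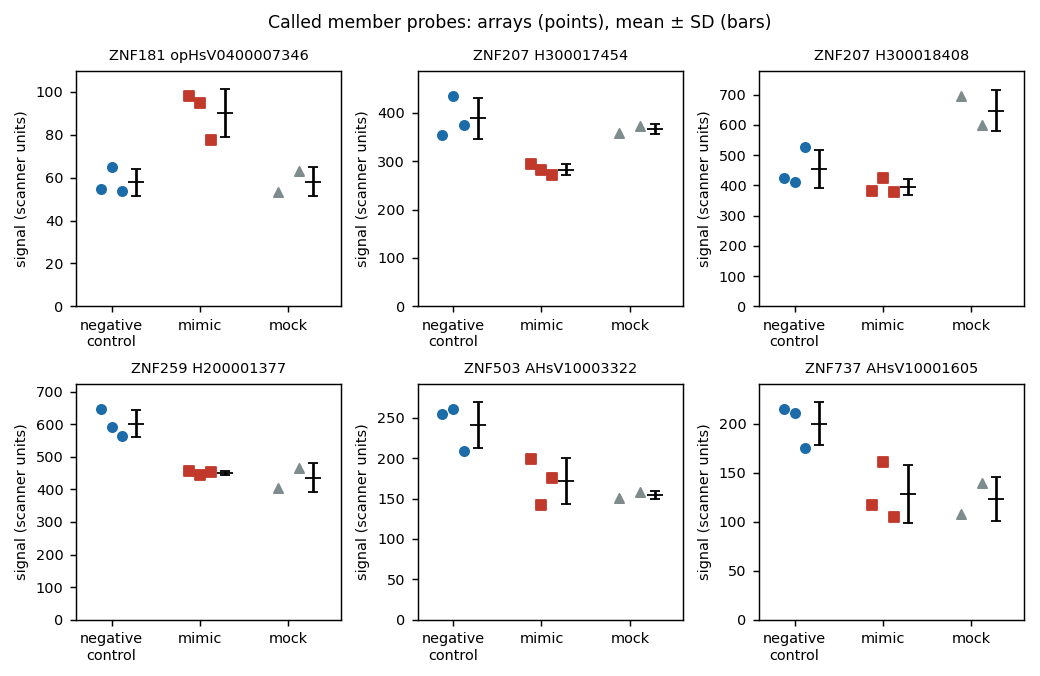
Signal in scanner units of the 6 member probes called in any comparison, with 1 point per array and the mean ± SD of each group beside it. ZNF259, ZNF503 and ZNF737 are highest on the 3 negative control arrays, ZNF181 on the 3 mimic arrays and ZNF207 probe H300018408 on the 2 mock arrays, whereas ZNF207 probe H300017454 is lowest on the mimic arrays.

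Against mock, the mimic arrays had 1 called member, which fell: the second probe of ZNF207, H300018408. It was 1.64% of the members, beside 3.77% of all tested probes (2.56% lower and 1.22% higher) and 5.39% of those at the same level. Limma called 0 members higher, with 7 higher (8.83% of all tested probes) and 3 lower (9.68% of all) at an unadjusted p below 0.05. The methods' t-test with the same adjustment called 0 members in either direction, and only 0.0155% of all tested probes. The probe gave 424.2, 410.4 and 525.6 with the negative control, 380.9, 423.7 and 378.5 with the mimic, and 695.5 and 598.8 in mock. The mock arrays were high, and the mimic and negative control arrays overlapped. Mean signal was 394 ± 25.4 with the mimic (n = 3) and 647 ± 68.4 in mock (n = 2), a ratio of 0.609 and a log2 change of -0.65 ± 0.11 (SE, adjusted p = 0.0231). Against the negative control the change was -0.17 ± 0.10 (adjusted p = 0.268), and the negative control itself lay 0.47 ± 0.11 below mock, which did not pass (adjusted p = 0.0626). The call was lost without mimic replicate 1 or 3 (adjusted p = 0.0675 and 0.0746) and without mock replicate 1 or 2 (0.0926 and 0.0606), so that the number of members that fell was then 0. Without negative control replicate 2 it was 2. The number that rose was 1 without mimic replicate 3.

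The 2 probes of ZNF207 therefore gave different patterns. H300017454 was low with the mimic and alike in both controls, with a difference between them of 0.07 ± 0.08 and a 95% interval of -0.11 to 0.25, and H300018408 was high in mock. Both had negative values against both controls, and each passed the test against a different control. The transcripts that each probe reads were not examined here. Against both controls in the same direction, limma called none of the 61 members.

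Between the controls, ZNF259 (ZPR1) was the 1 called member, with negative control above mock by 0.42 ± 0.07 on the log2 scale (SE, adjusted p = 0.0254), a ratio of 1.38. It was 1.64% of the members, beside 3.6% of all tested probes (2.23% lower and 1.37% higher) and 5.48% of those at the same level. Limma called 0 members lower, with 3 lower (11.1% of all tested probes) and 10 higher (10.2% of all) at an unadjusted p below 0.05. The methods' t-test called 0 members in either direction, and only 0.0465% of all tested probes. The call of ZNF259 was lost without negative control replicate 1, 2 or 3 (adjusted p = 0.0679, 0.0599 and 0.0547) or mock replicate 1 (0.129), and the number of higher members was then 0, as it was under median centring, where its change was 0.34 (adjusted p = 0.190). With the ring background its change was -0.62 and not called. Without mimic replicate 2 the number of higher members was 2, and without negative control replicate 3 the number of lower ones was 1. ZNF737 and ZNF503 also had negative control values above mock, by 0.53 ± 0.15 (adjusted p = 0.0957) and 0.51 ± 0.12 (adjusted p = 0.0647), neither of which passed. The comparisons of mimic with negative control and of negative control with mock share the negative control arrays, so that these values are not separate evidence.

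**Figure D3:**
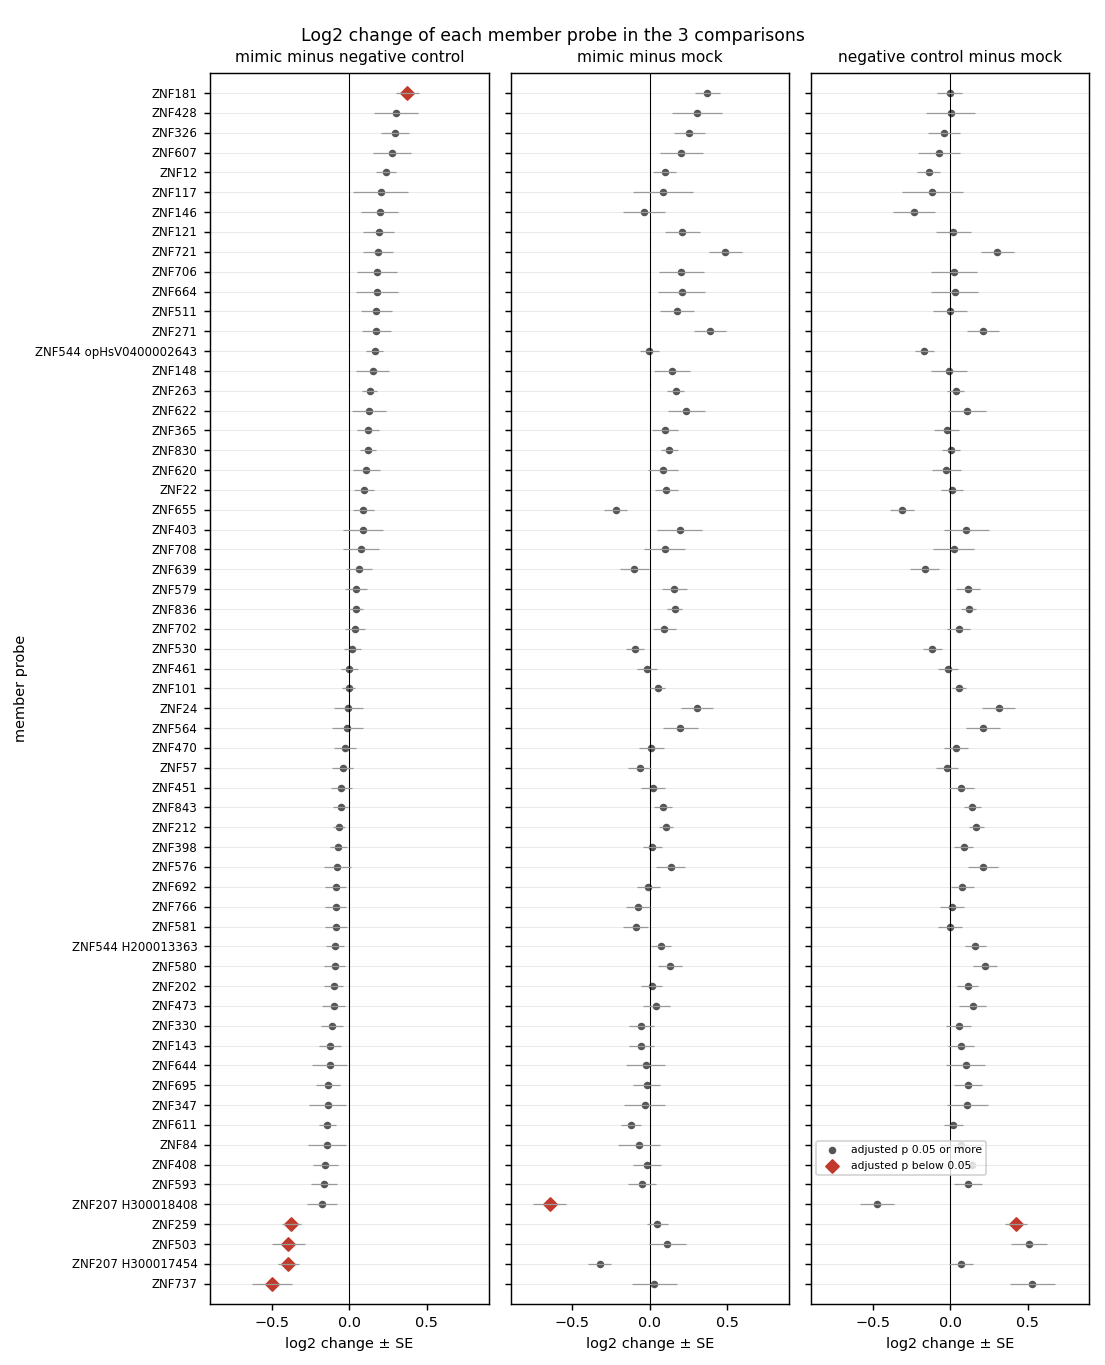
Log2 change ± SE of each member probe in the 3 comparisons, from the fit of all 8 arrays, with probes in the same order in each panel. Diamonds mark the 7 calls at an adjusted p below 0.05: 5 for mimic minus negative control, 1 for mimic minus mock and 1 for negative control minus mock.

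The changes of the members were small, and this held for most tested probes. Against the negative control the log2 changes ran from -0.50 to 0.38. The 95% interval lay within 0.5 of 0 for 52 of the 61 members, beside 11011 of the 12904 tested probes and 4439 of the 6165 at the same level. It lay within 1 of 0 for all 61 members. The median absolute change was 0.1205 for the members, 0.0880 for all tested probes and 0.1595 for those at the same level. Against mock the members' changes ran from -0.65 to 0.49, with 48 intervals within 0.5 (11400 over all tested probes, 4776 over those at the same level) and all 61 within 1. Between the controls they ran from -0.47 to 0.53, with 53 (11205 over all tested probes, 4577 over those at the same level) and 61. These limits are on the scale of log2(signal + 50), on which the change of a dim probe is understated.

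A few members that were named after their values were seen came close to the threshold. ZNF12, a KRAB repressor, gave 50.9, 54.9 and 54.2 with the negative control, 61.9, 84.5 and 69.8 with the mimic, and 64.8 and 62.9 in mock. Its mimic and negative control arrays did not overlap, and the change was 0.24 ± 0.07 (adjusted p = 0.0506). ZNF721 gave 248.2, 230.2 and 294.3, then 299.8, 322.9 and 272.9, then 178.4 and 219.1 in the same order, and its mock arrays were the lowest. Its change with the mimic was 0.49 ± 0.11 against mock (adjusted p = 0.0582) and 0.18 ± 0.10 against the negative control (adjusted p = 0.250).

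The mock arrays were the low ones for many members. Of the 61, 27 had their lowest value on a mock array (44.3%, against 25.6% of the 6165 probes at the same level), 19 of them on mock replicate 1 and 8 on replicate 2. Both mock arrays lay below the probe's own mean over 8 arrays for 23 members (37.7%, against 27.9%). The median deviation of the members from their own means was -0.0832 on mock replicate 1 and -0.0328 on replicate 2, and between -0.0033 and 0.0413 on the other 6 arrays. For all probes at the same level it was -0.0028 and -0.0046 on the mock arrays. Mock replicate 1 was also the array with most probes above background (52.3%) and the other 7 arrays had 47.3% to 51.1%. The part of this in the pattern was not tested.

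In the comparisons this appeared as a shift of the members above mock. The median change of mimic against mock was 0.0852 for the members and 0.0063 for all tested probes. It was 0.0172 for probes at the same level and 0.0127 for the other 195 tested ZNF-number probes. Of the 61 members 40 were above 0 (65.6%, against 53% of all tested probes). Under median centring the members' median was 0.0864, and on the deposited log2 values 0.0867. The mimic and mock arrays did not overlap, with the mimic higher, for 15 members (24.6%, against 16.9% of all tested probes), and with the mimic lower for 3 (4.92%, against 16.9%). For negative control against mock the members' median was 0.0570 and that of all tested probes 0.00088, with 44 of 61 members above 0 (72.1%, against 50.3%). Probes at the same level had 0.0045 and the other ZNF-number probes 0.0012. The members' median turned to -0.0106 under median centring, where all tested probes had -0.0272. On the deposited log2 values it was 0.0033, where they had -0.115. The members' median thus lay above that of all tested probes under each scaling. Probes at the same level were not compared under these scalings. The negative control was higher without overlap for 15 members (24.6%, against 19.4%) and lower for 4 (6.56%, against 19.9%). Without mock replicate 1 the members' 2 medians were 0.0489 and 0.0291, and without mock replicate 2 they were 0.0874 and 0.0948. The first of these moved by over 1.5 times without mock replicate 1, as did the second without either mock array.

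**Figure D4:**
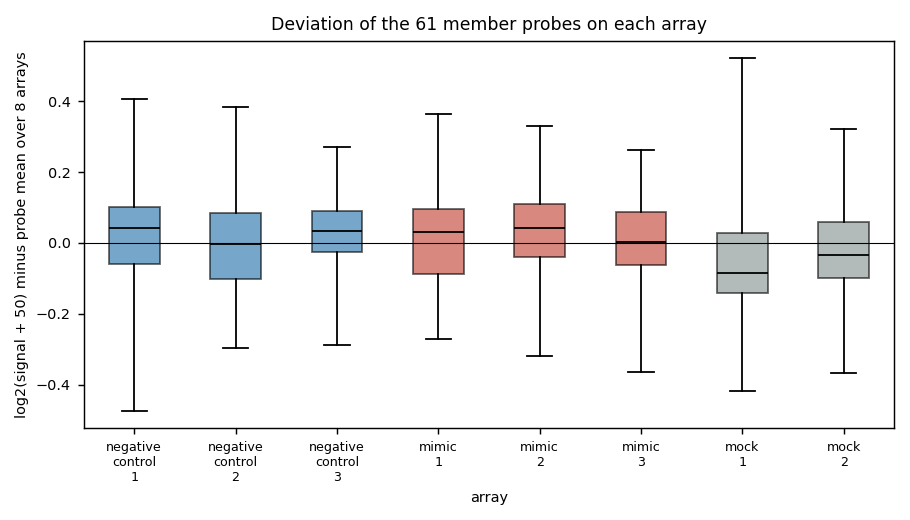
Deviation of the 61 member probes from their own mean over 8 arrays, on the scale of log2(signal + 50), for each array; the line is the median, the box the middle of the members (the quartiles) and the whiskers the full range. The median is lowest on mock replicate 1 (-0.0832), then on mock replicate 2 (-0.0328), and the boxes of all arrays overlap.

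Members listed for a role in the ribosome and translation were ZNF706, ZNF593, ZNF622 and ZNF330. The yeast counterparts of ZNF593 and ZNF622 act in the maturation and export of the large ribosomal subunit, and ZNF330 is a protein of the nucleolus. ZNF593 gave 521.6, 455.0 and 539.1 with the negative control, 424.2, 424.1 and 487.6 with the mimic, and 432.7 and 493.7 in mock. Its groups overlapped (-0.16 ± 0.08 against the negative control, adjusted p = 0.220). ZNF622 gave 358.2, 268.6 and 344.3, then 398.7, 338.3 and 333.1, then 274.5 and 315.0. Its mimic arrays lay above the mock arrays (0.24 ± 0.12, adjusted p = 0.364). ZNF330 gave 268.1, 264.8 and 273.7, then 271.2, 248.6 and 217.6, then 240.2 and 273.8, with overlap of all groups. Of the 5 genes listed for this role, 1 passed the test against the negative control, where 15.6% of all tested probes were called (7.81% lower). So small a count is no result about the role. The called gene, ZNF598, was no member and encodes the ubiquitin ligase of collided ribosomes. It gave 23.3, 20.5 and 30.1 with the negative control, 9.79, 9.58 and 10.4 with the mimic, and 10.2 and 23.4 in mock. It fell by 0.31 on the log2 scale (adjusted p = 0.0365), and against mock the change was -0.15 ± 0.09 (adjusted p = 0.435).

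Members listed for mitosis and the cell cycle were ZNF207 (above), ZNF655, which binds CDK4, ZNF365, a protein of the centrosome, and ZNF830, which acts in splicing and genome stability. ZNF655 gave 102.3, 94.5 and 92.2 with the negative control, 115.5, 107.6 and 94.5 with the mimic, and 143.2 and 120.3 in mock. The mock arrays were the high ones (-0.31 ± 0.08 for negative control against mock, adjusted p = 0.0731, and -0.22 ± 0.08 for mimic against mock, adjusted p = 0.170). ZNF365 ran from 48.4 to 75.2 over the 8 arrays and ZNF830 from 39.0 to 52.8, and neither passed in any comparison. For ZNF830 the mimic arrays lay above the mock arrays, with a change of 0.13 ± 0.06 (adjusted p = 0.299).

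Among members that bind promoters or the transcription machinery, ZNF143, an activator found at promoters and chromatin loops, gave 81.7, 79.5 and 68.9 with the negative control, 66.0, 75.5 and 57.7 with the mimic, and 64.3 and 77.2 in mock. Its groups overlapped (-0.12 ± 0.07, adjusted p = 0.293). ZNF326, a subunit of the DBIRD complex that links transcription with splicing, gave 66.8, 97.4 and 68.4, then 113.1, 97.6 and 106.7, then 81.6 and 79.2. All its mimic arrays lay above all control arrays, with 0.30 ± 0.09 over the negative control (adjusted p = 0.0686) and 0.26 ± 0.10 over mock (adjusted p = 0.237). ZNF148, which binds GC-rich promoters, gave 70.3, 47.4 and 79.5, then 75.4, 87.5 and 70.1, then 63.3 and 67.8, so that its mimic arrays lay above mock only (0.14 ± 0.12, adjusted p = 0.600). ZNF644, a partner of the methyltransferases G9a and GLP, ran from 51.1 to 84.7, and ZNF451, a SUMO ligase, from 33.1 to 48.0, with overlapping groups in each comparison.

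The members with a SCAN domain, through which such proteins pair with each other, were ZNF24, ZNF263 and ZNF202. ZNF24 gave 214.3, 176.4 and 187.1 with the negative control, 186.0, 220.0 and 169.1 with the mimic, and 132.9 and 157.5 in mock. The mock arrays were below all others (0.31 ± 0.11 for mimic against mock, adjusted p = 0.172, and 0.31 ± 0.11 for negative control against mock, adjusted p = 0.151). ZNF263 gave 49.4, 42.7 and 52.0, then 59.2, 52.9 and 60.3, then 46.7 and 44.6. Its mimic arrays lay above all control arrays, by 0.13 ± 0.05 over the negative control (adjusted p = 0.107) and 0.17 ± 0.05 over mock (adjusted p = 0.147). ZNF202, a repressor of genes of lipid metabolism, ran from 39.9 to 57.5 with overlapping groups.

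The corepressors through which KRAB proteins act were measured by 12 of the 14 genes listed. Against the negative control 1 rose and 1 fell, where 7.82% of all tested probes rose and 7.81% fell, so that 2 calls among 12 genes are near the background and no result about the corepressors as a group. SETDB1, which methylates histone H3 at lysine 9, gave 80.4, 79.8 and 79.7 with the negative control, 113.5, 99.7 and 109.9 with the mimic, and 64.4 and 84.2 in mock. Its mimic arrays lay above all control arrays, and it rose by 0.28 ± 0.06 against the negative control (adjusted p = 0.0272) and by 0.35 ± 0.07 against mock (adjusted p = 0.0453). MORC2, an ATPase that works with the silencing complex HUSH, gave 139.3, 139.2 and 141.3, then 128.1, 103.7 and 116.2, then 105.9 and 105.5. It was highest on the negative control arrays, and its change was -0.20 ± 0.05 with the mimic against the negative control (adjusted p = 0.0481), 0.09 ± 0.06 against mock (adjusted p = 0.498) and 0.29 ± 0.06 for negative control against mock (adjusted p = 0.0495). The median change over the 12 genes was 0.0986 against the negative control and 0.0865 against mock. These genes were not refitted under the alternatives.

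More than 1 probe was present for 12 of the 59 genes. ZNF207 and ZNF544 had 2 member probes each, and of 11 further probes that were no members 3 were bright enough to be tested. ZNF544 gave with probe H200013363 signals of 142.4, 114.2 and 120.4 with the negative control, 111.8, 115.3 and 116.3 with the mimic, and 105.5 and 107.6 in mock. Its probe opHsV0400002643 gave 47.2, 60.1 and 55.6, then 67.5, 67.5 and 65.2, then 62.5 and 71.5. The probes of ZNF544 went opposite ways, at -0.09 ± 0.06 and 0.16 ± 0.05 against the negative control (adjusted p = 0.338 and 0.0843), and neither passed the test. For ZNF143 the second probe, H300005352, changed by 0.07 ± 0.05 where the member probe had -0.12 ± 0.07. Members of this family can be close in sequence, and hybridisation of a probe to a paralog was not tested.

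Of the other 195 ZNF-number probes that were tested, 5 fell and 11 rose with the mimic against the negative control. That was 8.21% of them, beside 8.20% of the members and 15.6% of all tested probes (7.81% lower and 7.82% higher). Among the probes that rose was ZNF226, with 31.5, 30.7 and 25.3 with the negative control, 67.9, 63.1 and 66.1 with the mimic, and 39.8 and 26.8 in mock. Its mimic arrays lay above all control arrays, and the rise over the negative control was 0.55 ± 0.06 (adjusted p = 0.0023) and that over mock 0.48 ± 0.07 (adjusted p = 0.0152). The ratios of its mean signals were 2.25 and 1.97 in the same order. ZNF69 and ZNF697 also rose against both controls, by 0.31 ± 0.05 and 0.12 ± 0.03 against the negative control (adjusted p = 0.0106 and 0.0474). Their ratios of mean signals, mimic over negative control, were 1.60 and 1.34. These 3 were named after their values were seen, and unlike the members they lay under the level of 5 on at least 1 array.

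Chromosome 19 held 24 of the 59 member genes (40.7%), 46.1% of the 388 other ZNF-number genes and 7.01% of all 17473 genes placed. The high share was thus a property of the family on the array and was no larger in the expressed members. The 25 member probes on chromosome 19 included 1 that fell and 1 that rose against the negative control, and the 36 probes on other chromosomes included 3 that fell. These were 8% and 8.33% of the probes, beside 15.6% of all tested probes and 21.4% of those at the same level. The counts are thus alike and no result about the chromosome. The median change was -0.0055 on chromosome 19 and 0.0281 elsewhere. The called genes ZNF737 and ZNF181 lay far apart, at chr19:20530276-20565781 and chr19:34734243-34745378 (GRCh38.p14). ZNF737 had ZNF708 as the nearest member after it, 725 kb on, whose probe ran from 87.5 to 137.1 with overlapping groups, a change of 0.08 ± 0.12 against the negative control (adjusted p = 0.717). ZNF576 and ZNF428 lay 6.1 kb apart, and their changes against the negative control were -0.08 ± 0.09 and 0.30 ± 0.14. ZNF580 (chr19:55641002-55643470) lies within the span of ZNF581 (chr19:55635003-55645623), so that their values may not be separate.

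**Figure D5:**
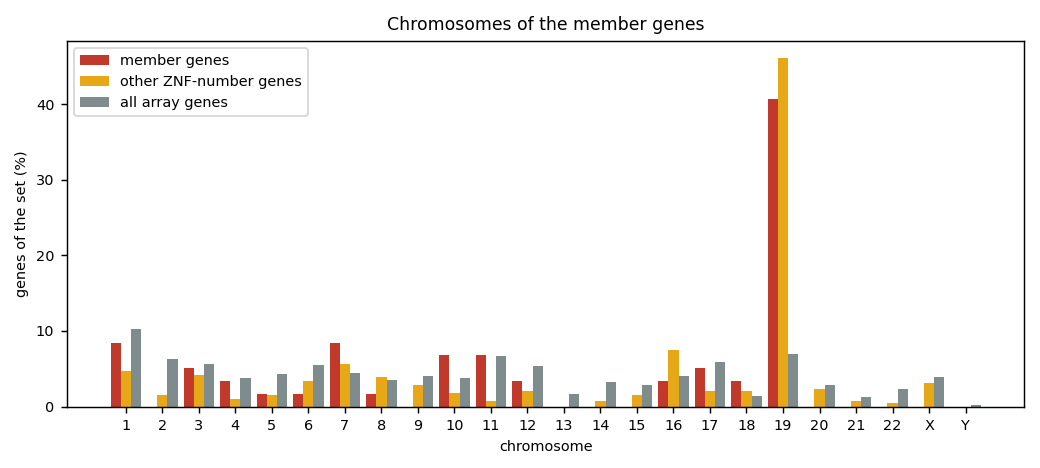
Share of genes on each chromosome, in percent, for the 59 member genes, the 388 other ZNF-number genes and all 17473 genes of the array that were placed. Chromosome 19 stands out for both ZNF sets (40.7% and 46.1%, against 7.01% of all genes).

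Promoters of the members, taken as 250 bases before to 50 after the start of the gene in the RefSeq table, were found for 53 of the 59 genes. Short motifs were searched as letters on both strands. The ETS motif CCGGAAG was present in 22 of 53 member promoters (41.5%), in 38.0% of 300 promoters of other ZNF-number genes and in 10.7% of all 27305 promoters. The members' share was thus like that of the ZNF genes that were not expressed at this level. Base composition moved with it: the median GC content was 63% for members, 61% for other ZNF-number genes and 58.3% for all promoters, with a median of 25, 22 and 14 CpG pairs, and its part in the share was not tested. The GC box GGGCGG (62.3%, 65.3% and 44.6% in the same order) and the TATA box TATAAA (3.77%, 3% and 12%) set both ZNF sets apart from all promoters in the same way. The CRE motif TGACGTCA was in 5 of 53 member promoters (9.43%), in 3.67% of the other ZNF-number promoters and in 1.98% of all. The CCAAT box (CCAAT) was in 37.7%, 49.0% and 35.7%, and the E-box CACGTG in 5.66%, 5.67% and 7.43%. The motif that ZNF143 itself binds was in 3.77%, 3.33% and 0.839%. A match of letters is no proof of binding.

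Stretches of 30 bases around the ETS motif, which is in capitals, are shown 5′ to 3′ on the gene's strand for the called members that had it and for 3 members of the role groups above, because its share among members stood furthest, in percentage points, above that among all promoters. They come from RefSeq, build GRCh38.p14. The motif reads CCGGAAG on the gene's strand or CTTCCGG where it lies on the other strand, and CTTCCGG is printed as found.
ZNF181 (chr19:34734132-34734161, plus): ggaagtgtggtCTTCCGGtacctgcggttc
ZNF737 (chr19:20565786-20565815, minus): gaagcggaaggCTTCCGGgttttgcggggc
ZNF143 (chr11:9460907-9460936, plus): ccaatggaaaaCCGGAAGcgtcctgtgagt
ZNF24 (chr18:35344451-35344480, minus): aggcccgcagaCCGGAAGcagcccgcgccg
ZNF622 (chr5:16465796-16465825, minus): tccgacgtgtgCCGGAAGtttcctcagtga
ZNF181 rose and ZNF737 fell against the negative control, and ZNF143, ZNF24 and ZNF622 did not pass the test. Only some of the 22 members with the motif are shown, and other role group members such as ZNF593 and ZNF655 also had it. Whether the motif goes with a change was not tested. The ZNF143 motif was present in ZNF212 and ZNF398, which lie on chromosome 7.
ZNF212 (chr7:149239638-149239667, plus): ggtcgctgctCCCAGAATGCacctggcatc
ZNF398 (chr7:149126318-149126347, plus): cgggcgcggtGCATGCTGGGactcggcgct
These are shown because the factor that binds the motif is itself a member. ZNF212 gave 45.0, 45.6 and 50.8 with the negative control, 44.9, 38.9 and 44.3 with the mimic, and 36.0 and 36.6 in mock, with the 3 groups apart from each other and changes of -0.07 ± 0.04, 0.10 ± 0.05 and 0.17 ± 0.05 that did not pass the test (adjusted p = 0.316, 0.299 and 0.0940). ZNF398 ran from 38.6 to 52.1 with overlapping groups.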

How the data were processed

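Per the file headers, each spot's deposited intensity is a median over pixels in the Cy5 channel (1 dye), without background correction or normalization. The authors also deposited log2 values, normalized by quantiles between arrays, in a table for which the sources used here state no background correction. Those log2 values chose the members. For the comparisons the spot intensity was corrected by normexp on the blank spots (offset 50), normalized by quantiles and taken to log2, and signals are the normalized value minus 50. Of 24460 probes, 12904 above the 95th percentile of blank spots on at least 2 arrays were tested. All 8 arrays entered 1 limma fit of the 3 group means (limma 3.58.1, R 4.3.3; 5 residual and 2.36 prior degrees of freedom), 2-sided, with Benjamini-Hochberg adjustment over the tested probes and a threshold of 0.05. The procedure was tested on simulated data. Intervals are 95% intervals of the fit. The number of arrays limits the precision. Named were called members (up to 10 each way), the 5 brightest, the 3 on either side of the level threshold, members of the role lists and other probes of called genes. The members and lists were chosen with earlier results of these data known. Gene positions and sequences came from RefSeq tables (GRCh38.p14). Alternatives were the ring background, the mean of the blanks, an offset of 16, median centring, the deposited log2 values, no filter, a fit of the 2 groups alone, an intensity trend, a replicate block, the methods' t-test, each array left out, and a member level of 4 or 6.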

Additional observations from a re-analysis of the deposited data

How the results depend on the processing

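With 3, 3 and 2 arrays the calls among members were few and changed with the setting, whereas of the 7 calls of a member the direction reversed only with the ring background, for ZNF259 (0.095 for mimic against negative control and -0.62 for negative control against mock) and ZNF181 (-0.045). The number of members lower with the mimic than with the negative control was 4, against 0 with the ring background, median centring and the deposited log2 values, 2 without the filter, 1 with the methods' t-test and 2 to 3 when 1 array was left out. The number higher was 1, against 0 with the ring background, the deposited log2 values, no filter, the methods' t-test and a member level of 6 (31 probes), 2 with the blank mean or the fit of the 2 groups alone, 3 with an offset of 16 or an intensity trend, and 0 to 2 when 1 array was left out. At a member level of 4 (110 probes) it was 8, where 7.82% of all tested probes were higher. Against mock 1 member was lower with the mimic, against 0 with the ring background, median centring, the deposited log2 values, no filter, the replicate block and the methods' t-test, and 0 to 2 when 1 array was left out. The number higher was 0, against 2 with an offset of 16, an intensity trend or a level of 4, 1 with the replicate block and 0 to 1 when 1 array was left out. For negative control against mock the number lower was 0, against 1 with an offset of 16 or an intensity trend, 2 at a level of 4 and 0 to 1 when 1 array was left out. The number higher was 1, against 0 with the ring background, median centring, the deposited log2 values, no filter, the fit of the 2 groups alone, the replicate block and the methods' t-test, 3 with an offset of 16 or an intensity trend, and 0 to 2 when 1 array was left out. Over all tested probes the ring background called 0% in each comparison. For mimic against negative control, the share called was 7.34% with median centring, 7.08% on the deposited log2 values, 5.12% without the filter and 6.37% with the methods' t-test. For mimic against mock it was 0.79%, 1.14%, 1.1% and 0.0155% in the same order. For negative control against mock it was 0.752%, 0.69%, 0.74% and 0.0465%. These member counts are thus no result about the family. Without the filter more probes were tested, which raises the adjusted p, and the cause of the other changes was not tested.

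Replicates with the same number deviated together with correlations of -0.106 to 0.345, and nothing in the labels ties the numbers across groups. As a replicate block the number gave, over all tested probes, calls for 14.3% (mimic against negative control), 1.73% (mimic against mock) and 1.09% (negative control against mock), against 15.6%, 3.77% and 3.6% without it. Over all tested probes the share of calls that were lower moved from 50% to 33.7% with median centring for mimic against negative control. For mimic against mock it moved from 67.8% to 77.5% with median centring and 86.4% on the deposited log2 values, and for negative control against mock from 61.9% to 90.7% and 88.8%. Of 18 alternatives the call of ZNF259 against the negative control held in 15, that of ZNF207 (H300017454) in 14, ZNF181 in 11, ZNF737 and ZNF207 (H300018408, against mock) in 8 each, ZNF259 between the controls in 7 and ZNF503 in 5. For 37 of the 61 members the mean signal was below 100, where the offset of 50 shrinks log2 changes.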
